A study of Mus musculus with 9 samples.

Results

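Lysosome genes were examined in lung tissue of control and irradiated mice. The list named 36 genes for lysosomal enzymes, membrane proteins, transporters and proton pump subunits. The genes were grouped by known function, and the list was chosen with earlier results of these data known. Each gene was represented by its brightest probe over the 9 arrays. Of these 36 genes, 35 were measured among 19698 genes in all, and Cd68 was not analyzed here. Each of the 35 was marked well above background on every array.

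Total RNA of lung from male C57BL/6 mice, given as 10 weeks old, was measured on single-channel Agilent arrays labeled with Cy5. Tissue was taken at several times after irradiation, so the age at collection is not known for each array. The 4 control arrays came from lung tissue labeled control, and the 5 irradiated arrays came from left lung exposed to a single dose of radiation under anesthesia with zoletil and rompun. RNA from triplicate experiments was pooled before labeling, so an array does not stand for an individual animal, and the tests below measure the spread between arrays only. The study used more than 1 dose, lung region and time, and the labels do not tell which applied to an array, so the irradiated group may hold several of them.

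Lysosomes are acidic compartments in which proteins, glycans and lipids taken up from outside the cell or delivered by autophagy are degraded. Cathepsins and other hydrolases work at the low pH that the vacuolar proton pump maintains, and heavily glycosylated membrane proteins line the compartment. Many genes of this system carry a promoter element that binds the transcription factor Tfeb and its relatives. In the lung, alveolar macrophages are rich in lysosomes, and type II alveolar cells store surfactant in lysosome-related lamellar bodies.

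Before the results, the arrays were compared through lists of marker genes. All 8 type II alveolar markers were well above background on every array. Irradiated array 1 and control array 3 stood apart through muscle genes. Averaged over 8 cardiac muscle genes, irradiated array 1 was at −5.64 relative to the control mean on the log2 scale, whereas the other arrays were between −0.52 and 0.54. Averaged over 8 skeletal muscle genes, control array 3 was at 4.71, whereas the others were between −2.09 and −0.84. The results were therefore also computed without these arrays. Fat genes separated the irradiated arrays further. Averaged over 6 adipose tissue markers, irradiated arrays 1 to 5 were at −2.98, −0.19, −1.27, −2.42 and −3.16, whereas the control arrays were between −0.42 and 0.25.

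To show what the members share apart from function, the RefSeq promoters (GRCm38.p6) were read from 250 bases before to 50 bases after the transcription start. Promoters were given for 30 of the 35 measured members, 33 promoters in all. They were searched on both strands for CACGTG, the core that Tfeb and its relatives bind, and for TCACGTGA, which contains that core. CACGTG was found in 11 of the 33 promoters (33.3%), against 7.15% of 32851 promoters of all genes. TCACGTGA was found in 5 member promoters (15.2%), against 0.974% of all promoters. TCACGTGA preceded by G and followed by C was found in no member promoter and in 0.326% of all promoters. The sites with TCACGTGA are printed 5′ to 3′ on the strand of the gene, with the motif in capitals.

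Ctsd, chr7:142387909-142387936, minus strand: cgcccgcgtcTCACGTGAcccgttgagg
Atp6v1a, chr16:44139374-44139401, minus strand: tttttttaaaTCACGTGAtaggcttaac
Ctsa, chr2:164833750-164833777, plus strand: gagcaaactgTCACGTGAtgcagatgct
Ctsa, chr2:164833767-164833794, plus strand: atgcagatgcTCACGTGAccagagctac
Mcoln1, chr8:3500463-3500490, plus strand: ggcgccccgcTCACGTGAccgcggcgca
Atp6v0d1, chr8:105566051-105566078, minus strand: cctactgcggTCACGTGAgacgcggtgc

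The motif of Ctsd began 99 bases before the start of transcription, that of Atp6v1a 132 bases and that of Mcoln1 46 bases before it. The Ctsa motifs began 13 bases before and 4 bases after the start, and that of Atp6v0d1 lay across the start. The shorter core, outside TCACGTGA, is shown for Glb1, Naglu and Lamp1. Glb1 and Naglu are described below as higher on every irradiated array, and the promoter of Lamp1 held the core at 4 places. Ctsl, Gaa, Lgmn and Mcoln1 also held the shorter core, and their sites are not printed.

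Glb1, chr9:114401020-114401045, plus strand: gcttctgagtCACGTGgcctacagag
Naglu, chr11:101070011-101070036, plus strand: accttcaggtCACGTGgcccgaggtc
Lamp1, chr8:13159090-13159115, plus strand: ggcaagatatCACGTGgtccagcgcc
Lamp1, chr8:13159106-13159131, plus strand: gtccagcgccCACGTGatgccgactg
Lamp1, chr8:13159123-13159148, plus strand: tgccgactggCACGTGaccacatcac
Lamp1, chr8:13159136-13159161, plus strand: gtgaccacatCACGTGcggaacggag

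These matches describe the letters of the promoters and were not measured as binding sites. Ctsd held the shorter core at a further place, which began 245 bases before the start. Of the 9 members described below as higher on every irradiated array, 7 had a promoter given. CACGTG was held by 4 of these (57.1%), Ctsd, Glb1, Naglu and Atp6v1a. The promoters of Ctsk, Lipa and Scarb2 did not hold it in this window. Among all 30 members with a promoter, 11 (36.7%) held it, against 8.09% of all genes. Gaa and Mcoln1, whose log2 differences were 0.01 and 0.03, held it too. Whether the motif goes with the difference was not tested.

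The comparison of the control with the irradiated arrays asked how lysosome genes differed after irradiation of the lung. Every one of the 35 members had a higher mean on the irradiated arrays. The median log2 difference, irradiated minus control, was 0.31, a 1.24-fold higher intensity, against 0.0085 over all genes. Differences ranged from 0.01 for Gaa to 1.70 for Ctsk, and 51.9% of all genes had a difference above 0. In bulk tissue, more cells of a type that uses these genes and more RNA per cell cannot be told apart.

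With the processing and the fit without a block that are used here throughout, no member passed limma's test at an adjusted p under 0.05. Up to 3 members passed with other filters, scalings or an array left out, as given in the closing section, and 2 or 19 passed with a block for scan pairs, as described below. Over all genes 0.416% passed, and the lowest adjusted p among members was 0.0529. At an unadjusted p under 0.05, 23 members (65.7%) were higher and none lower, against 7.37% of all genes higher and 4.98% lower. Since the members were chosen with such results known, these shares describe the list and are not independent evidence of its direction. In 9 members (25.7%) every irradiated array lay above every control array, against 3.39% of all genes. No member lay below on every irradiated array, as 1.76% of all genes did. In 13 further members 4 of the 5 irradiated arrays lay above the highest control array, and the share of all genes that did so was not counted. Only Npc1 and Atp6v0d1 had no irradiated array above the highest control array. Without irradiated array 1, 18 members (51.4%) had groups that did not overlap, against 5.47% of all genes on the same 8 arrays.

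**Figure D1:**
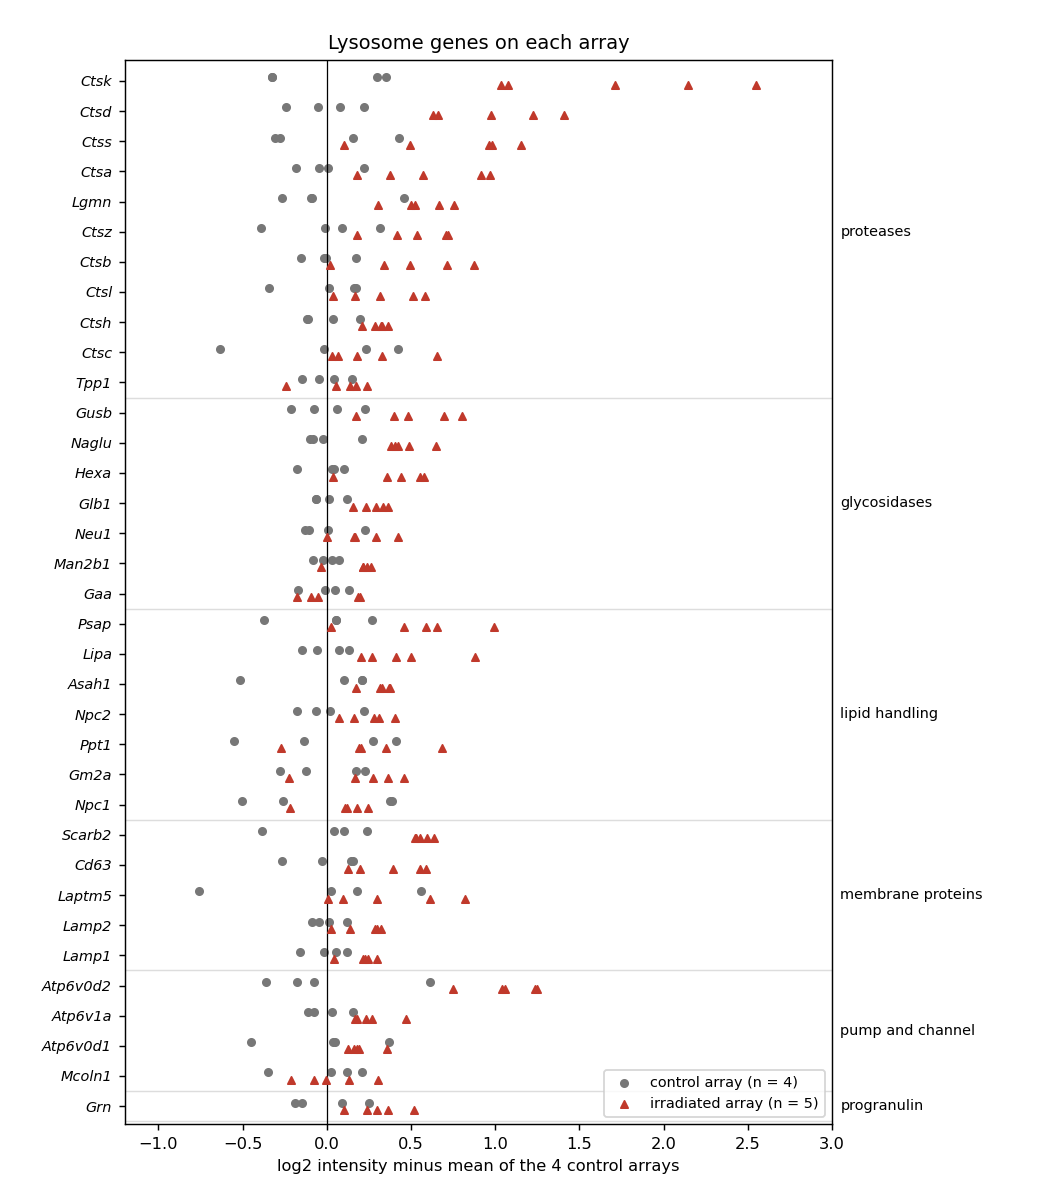
Each row is a lysosome gene, ordered within its role, and each point is an array, placed by its log2 intensity minus the mean of the 4 control arrays (gray circles, control; red triangles, irradiated). The irradiated points of Ctsk reach furthest to the right, and the points of Gaa, Mcoln1 and Npc1 overlap with their controls.

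**Figure D2:**
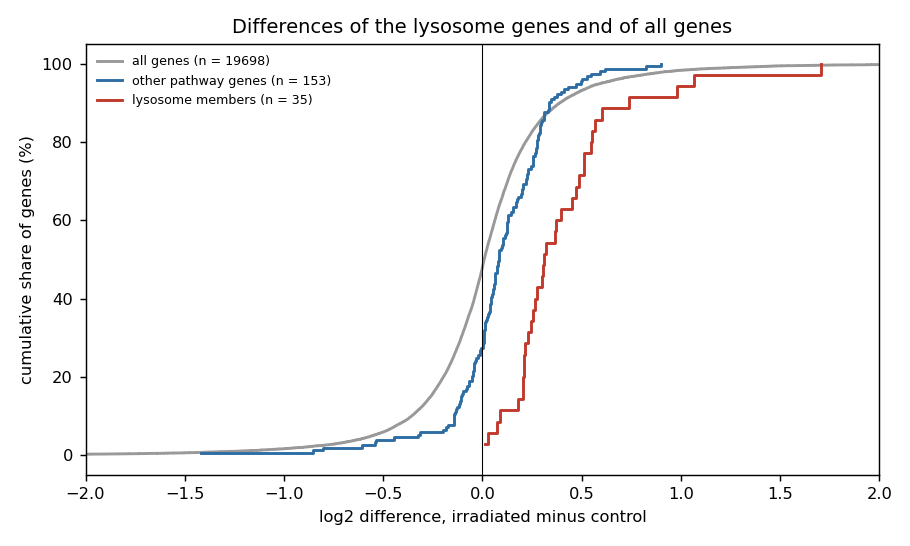
Cumulative share of genes (percent) against the log2 difference, irradiated minus control, for the 35 lysosome members (red), 153 other lysosome and autophagy genes (blue) and all 19698 genes (gray). The horizontal axis leaves out the most extreme genes of the whole array, and the red line starts to the right of 0.

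The proteases gave the highest median of the roles with several members, 0.51 over 11 genes. Of these, 9 (81.8%) were higher at an unadjusted limma p under 0.05, against 7.37% of all genes. In 3 (27.3%), Ctsk, Ctsd and Ctsh, every irradiated array lay above every control array, against 3.39% of all genes. Ctsk encodes cathepsin K, a collagen-degrading protease best known from osteoclasts. Its log2 intensities were 13.52, 13.57, 12.90 and 12.90 on control arrays 1 to 4, and 14.30, 14.26, 14.93, 15.77 and 15.37 on irradiated arrays 1 to 5. The lowest irradiated array was 0.68 above the highest control array, and the irradiated arrays differed from each other more than the controls did (SD 0.66, n = 5, against 0.37, n = 4). The difference was 1.70 ± 0.32 (SE), a 3.26-fold higher intensity, with a limma adjusted p of 0.0651.

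Ctsd encodes cathepsin D, the main aspartic protease of lysosomes, and its promoter holds the TCACGTGA printed above. Its log2 intensities were 15.99, 15.85, 15.53 and 15.72 on the control arrays and 16.43, 16.40, 16.75, 17.18 and 16.99 on the irradiated arrays. Again irradiated arrays 4 and 5 were the highest and irradiated arrays 1 and 2 the lowest of their group. The difference was 0.98 ± 0.17 (SE), 1.97-fold, with a limma adjusted p of 0.0529. A second, dimmer probe of Ctsd gave 1.04 ± 0.39.

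Ctsh, an aminopeptidase of the cathepsin family that is also made by type II alveolar cells, had a small difference of 0.30 with little spread. Its control values were 16.54, 16.22, 16.23 and 16.38, and its irradiated values were 16.67, 16.63, 16.67, 16.55 and 16.71. The groups were separated by only 0.0084, since control array 1 came close to irradiated array 4. Tpp1, a peptidase that removes tripeptides, had the smallest difference of the proteases, 0.07. Its values were 11.91, 11.82, 12.02 and 11.72 on the control arrays and 12.01, 11.92, 12.04, 12.11 and 11.63 on the irradiated arrays, so the groups overlapped.

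Among the other proteases, Ctss (cathepsin S, which trims the invariant chain of MHC class II) had a difference of 0.74, with a limma adjusted p of 0.27. Ctsa, a carboxypeptidase that also protects other lysosomal enzymes, had 0.60, and Lgmn (legumain), which cleaves after asparagine and processes cathepsins, had 0.55. The cysteine proteases Ctsz, Ctsb and Ctsl had 0.51, 0.49 and 0.32. In Ctss, Ctsa, Lgmn, Ctsz and Ctsb, 4 of 5 irradiated arrays lay above every control array, and irradiated array 1 was the exception in each. Ctsc, the activator of granule proteases, had 0.25 and an adjusted p of 0.793. Its difference ranged from 0.042 to 0.39 over the alternatives given in the closing section.

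**Figure D3:**
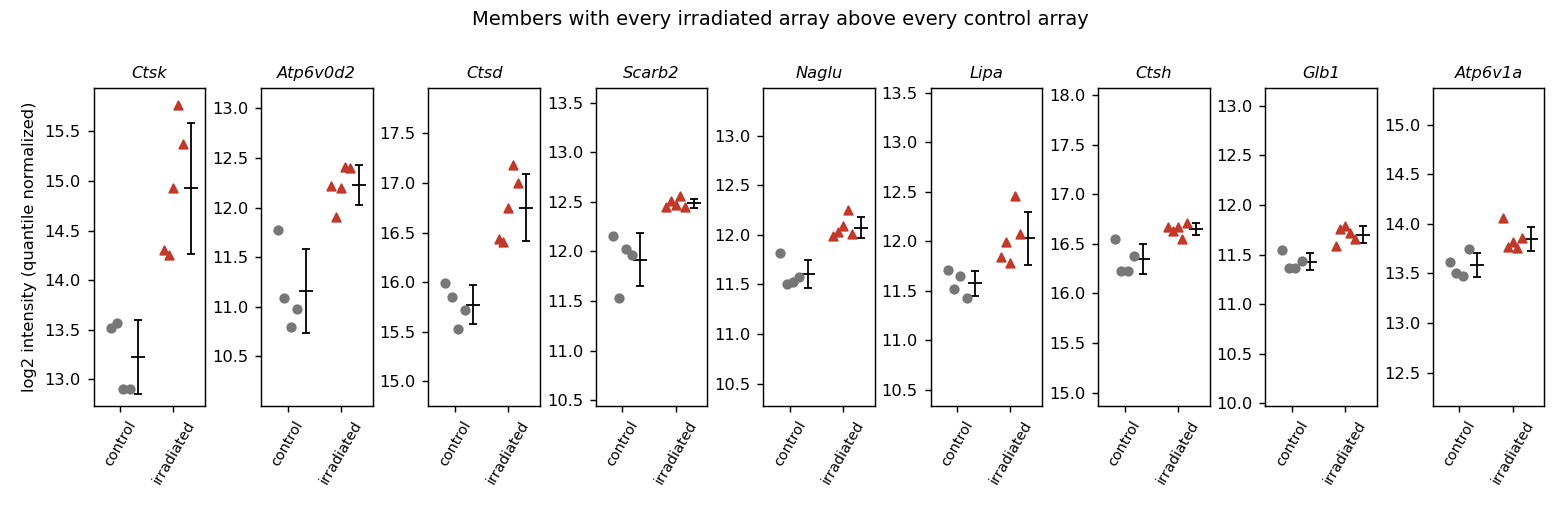
Log2 intensity on each control (gray circles, n = 4) and irradiated array (red triangles, n = 5) of the 9 members whose groups did not overlap; bars give the mean and SD, and all vertical axes span the same range. Ctsk, Atp6v0d2 and Ctsd show the widest separation of means, whereas the groups of Ctsh and Atp6v1a nearly touch.

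The glycosidases, which remove sugars from glycoproteins, glycolipids and glycosaminoglycans, had a median difference of 0.27 over 7 genes. Of these, 4 (57.1%) were higher at an unadjusted limma p under 0.05, against 7.37% of all genes. Naglu, which degrades heparan sulfate, had control values of 11.81, 11.50, 11.52 and 11.58 and irradiated values of 11.98, 12.03, 12.09, 12.25 and 12.01. All irradiated arrays lay above control array 1, the highest control. The difference was 0.47 ± 0.10 (SE) with a limma adjusted p of 0.0845.

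Glb1, the lysosomal beta-galactosidase, was the other glycosidase whose groups did not overlap. It gave 11.54, 11.36, 11.36 and 11.44 on the control arrays and 11.58, 11.76, 11.79, 11.72 and 11.66 on the irradiated arrays, a difference of 0.27. Its groups were 0.036 apart. Gusb, the beta-glucuronidase, had the largest difference of this role, 0.51, but overlapped through irradiated array 1. Its values were 12.58, 12.31, 12.45 and 12.75 on the control arrays and 12.70, 12.92, 13.01, 13.22 and 13.33 on the irradiated arrays.

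Gaa, the acid alpha-glucosidase that degrades glycogen, did not separate the groups. It was at 15.07, 14.91, 15.13 and 15.22 on the control arrays and at 14.91, 14.99, 15.03, 15.28 and 15.27 on the irradiated arrays. Its difference of 0.01 changed sign under several of the alternatives given in the closing section. Hexa, which takes part in ganglioside breakdown, had 0.39, with 4 of 5 irradiated arrays above every control array. Neu1, a sialidase, had 0.21 and Man2b1, an alpha-mannosidase, had 0.18.

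Among the 7 genes for lipid hydrolases, activators and cholesterol transporters, the median difference was 0.25. At an unadjusted limma p under 0.05, 3 of them (42.9%) were higher, against 7.37% of all genes. Lipa encodes the acid lipase that frees cholesterol from its esters. Its values were 11.71, 11.52, 11.65 and 11.43 on the control arrays and 11.84, 11.99, 11.78, 12.45 and 12.07 on the irradiated arrays. The groups did not overlap, and irradiated array 4 stood above the rest. The difference was 0.45 ± 0.14 (SE) with a limma adjusted p of 0.257.

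Psap, the precursor of the saposins that help enzymes reach their lipid substrates, had the largest difference of this role, 0.54. Its control values were 14.75, 14.97, 14.75 and 14.32, and its irradiated values were 14.72, 15.16, 15.29, 15.69 and 15.36. Irradiated array 1 lay within the control range and the other 4 above it. Asah1 (acid ceramidase) had 0.31, Gm2a (an activator of ganglioside breakdown) 0.21 and Ppt1 (which removes palmitate from proteins) 0.23.

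The cholesterol exporters of the lysosome were both given without a passing test. Npc2, the soluble carrier, had a difference of 0.25, with 3 irradiated arrays above every control. Npc1, the membrane transporter, had 0.09 and a limma adjusted p of 0.958, and the sign of its difference changed under some alternatives. Npc1 was at 10.71, 9.83, 10.07 and 10.72 on the control arrays and at 10.51, 10.58, 10.44, 10.12 and 10.45 on the irradiated arrays, all within the control range.

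The 5 lysosomal membrane proteins had a median difference of 0.37, and 4 (80%) were higher at an unadjusted limma p under 0.05, against 7.37% of all genes. Scarb2, the receptor that carries glucocerebrosidase to lysosomes, was the most separated of them. It was at 12.16, 11.53, 12.02 and 11.96 on the control arrays and at 12.44, 12.51, 12.47, 12.56 and 12.45 on the irradiated arrays. The irradiated arrays were tightly grouped (SD 0.048, n = 5, against 0.27, n = 4, in the controls). The difference was 0.57 ± 0.12 (SE) with a limma adjusted p of 0.0924.

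Lamp1, a major glycoprotein of the lysosomal membrane, had the smallest difference of this role, 0.21. Its values were 17.25, 17.11, 17.18 and 16.97 on the control arrays and 17.34, 17.17, 17.37, 17.43 and 17.35 on the irradiated arrays. Irradiated array 2 lay below the highest control, and the other irradiated arrays lay above it. The related Lamp2 was likewise at 0.21. The tetraspanin Cd63 had 0.37, with 4 irradiated arrays above every control. Laptm5, a lysosomal membrane protein of blood-derived cells, also had 0.37 but an SD of 0.55 among the controls (n = 4) and an adjusted p of 0.733.

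Of the proton pump, Atp6v0d2 had the second largest difference among all members. It encodes the d2 form of a subunit of the membrane sector of the pump, a form known from osteoclasts and macrophages. Its values were 11.77, 11.08, 10.80 and 10.98 on the control arrays and 12.21, 11.91, 12.20, 12.40 and 12.40 on the irradiated arrays. Control array 1 stood well above the other controls, yet below every irradiated array. The difference was 1.07 ± 0.19 (SE), 2.09-fold, with a limma adjusted p of 0.0557, and a second probe gave 1.09 ± 0.24.

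The ubiquitous form, Atp6v0d1, had a difference of 0.20 with no irradiated array above the highest control array. Whether the d1 and d2 forms differed in their response was not tested. Atp6v1a, the catalytic subunit of the pump, was at 13.62, 13.51, 13.48 and 13.74 on the control arrays and at 14.06, 13.76, 13.82, 13.75 and 13.86 on the irradiated arrays. The difference was 0.26, and the groups were only 0.0076 apart. Mcoln1, the calcium channel of lysosomes, had 0.03, with values of 13.18, 13.27, 13.09 and 12.72 on the control arrays and 13.37, 13.19, 12.99, 13.06 and 12.85 on the irradiated arrays. These values overlapped, and the sign of the difference changed under some alternatives. Grn, the precursor of granulins and a secreted and lysosomal protein, had 0.30, with 3 irradiated arrays above every control.

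Among the members, 8 were measured by more than 1 probe, and all probes of each gave a higher mean on the irradiated arrays. Their log2 differences were between 0.0042 and 0.32 apart within a gene. The largest gap was for Ctsa, whose dimmer probe gave 0.28.

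The arrays were next described by the median of the 35 members relative to the control mean. This median was 0.18, −0.066, −0.082 and 0.013 on control arrays 1 to 4 and 0.18, 0.36, 0.33, 0.37 and 0.40 on irradiated arrays 1 to 5. Thus irradiated array 1, the array with the low cardiac muscle genes, was only just above control array 1, and the other irradiated arrays were higher. Irradiated array 4 was the highest of all 9 arrays for 17 members, and irradiated array 1 was the lowest of the irradiated arrays for 16. Without irradiated array 1 the median difference was 0.35, and 3 members (Ctsd, Ctsk and Hexa) passed limma's test at an adjusted p under 0.05, as did 1.65% of all genes. Without irradiated array 1 and control array 3 together the median difference was 0.33, with 33 of 35 members higher and none past the test.

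Arrays also shared features of their scan. Vertical scan position grouped control 1 with irradiated 2, control 2 with irradiated 3, control 3 with irradiated 4 and control 4 with irradiated 5. Irradiated array 1 had no partner. The median local background was close within the pairs (27 and 25.5, 43.5 and 45.5, 36 and 35, 24 and 24) but was not used to form them. The files do not say what this grouping was. Across genes, the deviations of paired arrays from their group means had correlations of 0.33, 0.18, 0.33 and 0.43. Within these pairs the median difference of the members was 0.21, 0.39, 0.49 and 0.39, with 26, 34, 34 and 32 of 35 members higher on the irradiated array, so the median was above 0 in every pair. Of all genes 46.3%, 53.7%, 48.2% and 51.2% were higher within these pairs. With the pairs as a fixed block, 2 members (Ctss and Gusb, 5.71%) passed at a limma adjusted p under 0.05. This share was near the 3.84% of all genes that passed. In this fit irradiated array 1, which had no partner, did not contribute to the difference. With that array left out and no block, 3 members and 1.65% of all genes passed. With the pairs as a random block 19 members (54.3%) passed, against 9.45% of all genes. 

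Macrophage markers were compared on the same arrays. Of 18 such markers, 15 had a difference above 0, none passed limma's test after adjustment, 10 (55.6%) were higher at an unadjusted p under 0.05, against 7.37% of all genes, and 1 was lower. In 4 of them (22.2%, against 3.39% of all genes) every irradiated array was above every control array: Msr1 (1.38), Adgre1 (0.72), Siglec1 (0.66) and Mrc1 (0.60). Csf1r, the receptor for the macrophage growth factor, had 0.09, and the scavenger receptor Marco had −0.63. The largest difference in size was that of Fabp4, a fatty acid carrier of alveolar macrophages and fat cells, with −1.59 and an unadjusted limma p of 0.0302. Averaged over the 18 markers, the control arrays were between −0.34 and 0.38 relative to the control mean and the irradiated arrays between −0.043 and 0.67, so the groups overlapped. The log2 of their summed intensity ranged from 18.17 to 19.10 in the control group and from 18.42 to 19.16 in the irradiated group. All 18 were well above background on every array. The part of these cells in the lysosome result was not tested.

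**Figure D4:**
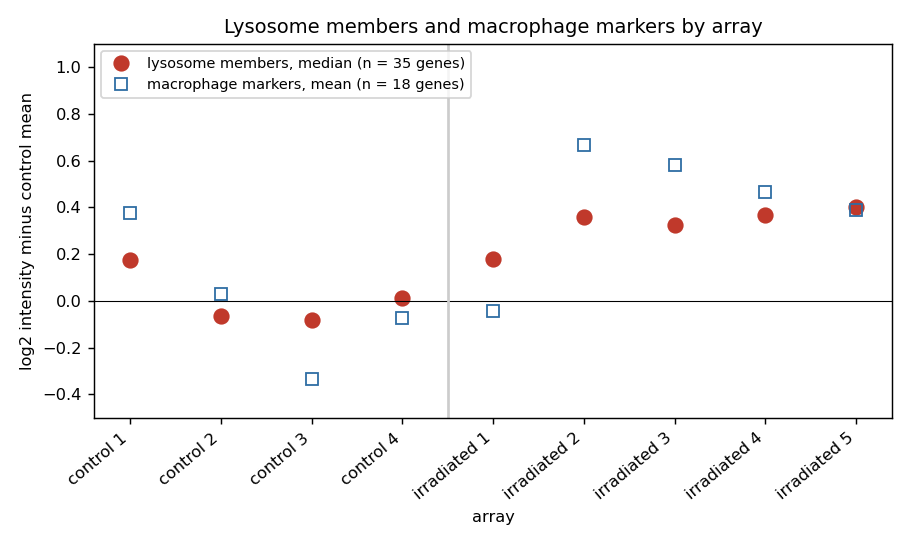
Log2 intensity minus the control mean on each array, as the median of the 35 lysosome members (red circles) and as the mean of the 18 macrophage markers (blue squares). On control array 1 and on irradiated arrays 2 to 5 both are above 0, whereas on irradiated array 1 the macrophage markers are at −0.043 and the lysosome members at 0.18.

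Because Ctsk, Atp6v0d2 and Acp5 are known from osteoclasts, 7 genes of osteoclast-type macrophages were also listed. Their median difference was −0.10, with 3 above 0, and the groups overlapped for each of the 7. At an unadjusted limma p under 0.05, 2 (28.6%) were higher, against 7.37% of all genes. Those above 0 were Dcstamp (1.37 ± 0.65, SE), Calcr (0.93 ± 0.40) and Acp5 (0.62 ± 0.22), and the other 4 were between −0.39 and −0.10. All 6 adipose tissue markers had a difference below 0, with a median of −2.29. At an unadjusted limma p under 0.05, 5 of the 6 were lower, against 4.98% of all genes. Cidec (−1.75) and Retn (−2.17) lay lower on every irradiated array, as did 1.76% of all genes. The 8 skeletal and 8 cardiac muscle genes had medians of −1.69 and −1.26, and each of these rests on a single array. Without irradiated array 1 the cardiac list means of the irradiated arrays were between −0.49 and 0.41, within the control range of −0.52 to 0.54. Without control array 3 the skeletal list means of the controls were between −1.86 and −1.40, within the irradiated range of −2.09 to −0.84. All 5 smooth muscle markers were below 0, with a median of −0.53 and list means between −0.20 and 0.27 in the control group and between −0.97 and −0.11 in the irradiated group. Red blood cell genes had a median of −0.68 over 3 genes and neutrophil markers −0.52 over 10. Markers of type II alveolar cells had a median of −0.12 over 8 genes. Type I alveolar markers had a median of 0.29 over 5 genes. In 1 of them (20%, against 3.39% of all genes), Pdpn (0.52, limma adjusted p 0.0632), the groups did not overlap. Dendritic cell markers had a median of 0.34 over 6 genes, 1 of them (16.7%) higher at an unadjusted limma p under 0.05, against 7.37% of all genes. The medians of the monocyte, T cell, B and plasma cell, mast cell, club and ciliated cell, endothelium and fibroblast lists were between −0.26 and 0.16. No gene of these lists passed limma's test after adjustment. Their part in the lysosome result was not tested either.

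Other genes of the pathway, listed by function, were compared in the same fit. Of 37 other lysosomal hydrolases, 28 had a difference above 0, none passed limma's test, 10 (27%, against 7.37% of all genes) were higher and 1 lower at an unadjusted p under 0.05, and the median was 0.23. The largest differences were 0.62 for Acp5, the tartrate-resistant acid phosphatase that is also on the osteoclast list, and 0.54 for Pld3. In 4 of them (10.8%, against 3.39% of all genes) every irradiated array was above every control array, among them Acp2 (0.37), a lysosomal acid phosphatase, Fuca1 (0.31), which removes fucose, and Arsb (0.27), a sulfatase.

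The 28 other membrane proteins and transporters had a median of 0.055. Slc17a5, which exports sialic acid, had the largest difference in size, −0.54, followed by Litaf with 0.47. Ostm1 (0.27) was the 1 gene of this list whose groups did not overlap, a share of 3.57%, near the 3.39% of all genes. Of 9 genes that sort enzymes to lysosomes, the median was 0.030. Igf2r, the large mannose 6-phosphate receptor, had 0.34, and Gnptab, which makes the mannose 6-phosphate tag, had 0.25. Gnptab was the 1 gene of this list (11.1%, against 3.39% of all genes) whose groups did not overlap. No gene of these lists passed limma's test, and 3 (10.7%) of the membrane list and 2 (22.2%) of the sorting list were higher at an unadjusted p under 0.05, against 7.37% of all genes. Slc17a5 was lower at that level.

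The 22 other proton pump subunits had a median of 0.15, with 18 above 0. At an unadjusted limma p under 0.05, 5 (22.7%) were higher and 2 lower, against 7.37% and 4.98% of all genes. The single gene of the pathway lists that passed limma's test was among these subunits and fell. Atp6v1b1, a B subunit known from specialized acid-secreting epithelial cells, was at 6.41, 6.50, 5.95 and 5.84 on the control arrays and at 4.62, 4.91, 4.42, 4.72 and 5.11 on the irradiated arrays. It was dim, and only 3 of the 5 irradiated arrays were well above background. The fitted difference was −1.42 ± 0.23 (SE) with a limma adjusted p of 0.0416, and its size is uncertain since it was −0.52 with normexp background correction. The call was lost with scaling to the 75th percentile (adjusted p 0.0713), in the deposited table (0.96), with the scan pairs as a block (0.0556) and when any array but irradiated array 1 was left out (0.0732 to 0.119). Atp6v1c2, a C subunit with restricted tissue expression, had −0.80 and an adjusted p of 0.0792, with values of 13.16, 13.44, 13.12 and 13.31 on the control arrays and 12.95, 12.39, 12.17, 12.19 and 12.57 on the irradiated arrays. Every irradiated array lay below every control array for both genes, unlike Atp6v0d2 and Atp6v1a, and this held for 1.76% of all genes.

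Among 17 regulators of lysosome biogenesis the median was 0.12, and none passed limma's test. At an unadjusted limma p under 0.05, 1 (5.88%) was higher, a share below the 7.37% of all genes. Tfec, a relative of Tfeb found mainly in macrophages, had the largest difference, 0.90 ± 0.32 (SE), followed by Rragd, a GTPase of the nutrient-sensing complex at the lysosome, with 0.50. Tfec was at 8.01, 7.57, 7.13 and 7.12 on the control arrays and at 8.90, 8.90, 8.54, 7.87 and 7.59 on the irradiated arrays. Irradiated arrays 4 and 5, the highest for Ctsk and Ctsd, were the lowest for Tfec. The transcript of Tfeb itself had 0.0034, that of Tfe3 had 0.12 and that of Mitf 0.18.

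Autophagy genes had a median of 0.018 over 32 genes, with none past limma's test. At an unadjusted p under 0.05, 4 (12.5%, against 7.37% of all genes) were higher and 1 (Atg9a) lower. Among those well above background on all arrays of a group, Vmp1 (0.41) and Atg9a (−0.31) had the largest differences in size. In Vmp1, Ulk2 (0.24) and Atg5 (0.15), 9.38% of the list against 3.39% of all genes, every irradiated array was above every control array. Of 8 cathepsin inhibitors, 4 had a difference above 0 and none passed limma's test. Cstb, the intracellular inhibitor cystatin B, had 0.59 ± 0.10 (SE) with a limma adjusted p of 0.0531. It was at 13.84, 13.59, 13.48 and 13.66 on the control arrays and at 13.96, 14.30, 14.25, 14.35 and 14.30 on the irradiated arrays. Cstb was the 1 gene of this list (12.5%, against 3.39% of all genes) whose groups did not overlap. The stefins Stfa3 and Stfa2, known from neutrophils, had −0.85 and −0.61, with limma adjusted p of 0.72 and 0.741. Stfa3 was at 9.05 on control array 3 and between 6.07 and 6.25 on the other controls, and without that array its difference was −0.13.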

How the data were processed

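The authors deposited the scanner output of each array as intensity values made by Agilent Feature Extraction, without normalization between arrays, and also a normalized intensity table. Here the processed signal of the scanner output, already corrected for background, was used. Control and outlier spots were left out, and 39303 of 39429 probes were kept, those whose signal exceeded 1.4 times its local background on 4 arrays or more. Quantile normalization was done on log2 values, and spots of a probe were averaged. RefSeq accessions gave a symbol for 26055 probes. The deposited table was tied to the arrays by scan position (rank correlation 1 on each array). The groups were compared with limma 3.58.1 (R 4.3.3; variance trend on intensity), and p-values were adjusted by Benjamini-Hochberg over the kept probes, of which 131 (0.333%) had an adjusted p under 0.05. Between 72.8% and 89.1% of spots per array were well above background, and the number of arrays limits the precision. Members and lists were chosen with earlier results of these data known. Named with array values were members without overlap and the highest and lowest of each role with several members. Of each pathway list, any gene past the test was named. The 2 largest differences in size among genes well above background on all arrays of a group were named too, some with array values. Further names, those of markers among them, and further array values were chosen after their values were seen. Alternatives covered background, scaling, filters, the deposited table, left-out arrays, blocks, variance model and threshold. The values of 1 gene of the pathway lists are not reported here.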

Additional observations from a re-analysis of the deposited data

Results flagged for a closer look

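In 3 of 70 groups of arrays (4.29%), a single array of a member stood far outside the remaining arrays (Dixon's criterion), and chance alone gives about 5%. Man2b1 was at 13.95 on irradiated array 1, whereas the other irradiated arrays were between 14.20 and 14.25. Asah1 was at 11.89 on control array 2, against 12.51 to 12.62 on the other controls. Atp6v0d1 was at 13.37 on irradiated array 2, against 13.15 to 13.21 on the other irradiated arrays.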

How the results depend on the processing

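The median difference of the members stayed between 0.26 and 0.39 under all alternatives, and no member was lower on every irradiated array. The count of members past the threshold, 0 as reported, was 1 with normexp (Ctsd; 0.371% of all genes), 2 with scaling to the 75th percentile (Ctsk, Atp6v0d2; 0.401%), 3 with either stricter filter (Ctsd, Ctsk, Atp6v0d2; 0.767% and 0.89%), 1 with the deposited table (Ctsk; 0.128%) and 1 with the mean of all probes (Atp6v0d2; 0.594%), 2 with the scan pairs as a block (3.84%) and 19 as a random block (9.45%), an alternative chosen after seeing the data. With an array left out it ranged from 0 to 3 (0.0254% to 1.65%); Atp6v0d2 passed without control array 1, and Ctsd, Ctsk and Hexa without irradiated array 1. The members without overlap, 9 as reported, were 8 with normexp (3.19% of all genes), 12 with scaling to the 75th percentile (2.51%), 3 with the deposited table (Ctsd, Ctsk, Atp6v0d2; 0.972%), 9 to 18 with an array left out (3.7% to 5.47%) and 18 without irradiated array 1 and control array 3 (6.99%), also chosen after seeing the data. The 131 probes past the threshold became 199 with the filter on all 9 arrays, 206 with probes well above background in a group, 44 with the deposited table, 44 without the intensity trend, 5 at 0.01, 1105 with the scan pair block, 2899 with the random block, and 5 to 476 with an array left out (5 without control array 3, 476 without irradiated array 1). Replicate numbers did not pair the arrays (correlations of deviations 0.096, −0.018, −0.0086 and −0.15); with the replicate block, which leaves irradiated array 5 without a partner, 1 probe and 0 members passed. Signs turned for Gaa (−0.014 with normexp, −0.018 in the deposited table, −0.031 with the replicate block, −0.0033 with array weights), Mcoln1 (−0.00083 with normexp, −0.011 in the deposited table, −0.040 with the scan pair block, −0.012 with the random block, −0.032 without irradiated array 1 and control array 3) and Npc1 (−0.023 without those arrays). With an array left out, Gaa ranged from −0.044 to 0.059, Mcoln1 from −0.087 to 0.099 and Npc1 from −0.081 to 0.22; the sign turned for Gaa without control array 2, irradiated array 4 or 5, for Mcoln1 without control array 4 or irradiated array 1, and for Npc1 without control array 2. Other members moved widely over the alternatives without a change of sign, among them Ctsc (0.042 to 0.39), Ppt1 (0.046 to 0.37) and Atp6v0d1 (0.053 to 0.33). Laptm5 ranged from 0.11 to 0.55 and Asah1 from 0.14 to 0.38. The cause of these changes was not tested.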
